A study of Sus scrofa with 20 samples.

Results

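The genes described here lie together in a gene-dense stretch of pig chromosome 12 (SSC12), inside a region that has been linked to coping behavior, and they were followed in the amygdala of high-reactive (HR) and low-reactive (LR) pigs. The list holds 58 gene symbols, from FBXO39 at the start of the stretch, through RABEP1, to FXR2 at its end. They were found on the array by the gene symbol that the platform annotation gives each probe set, which is the group of probes summarised into a single value. A probe set was kept when its mean over all 20 arrays reached 5.18 on the log2 scale, the median of all probe set means. Of the 58 genes, 51 had a probe set under their symbol and 46 passed this filter, with 69 of their 87 probe sets kept, against 10255 named genes and 23860 probe sets tested in the whole series. No probe set carried the symbols CTDNEP1, DLG4, C1QBP, ELP5, CD68, NLGN2 or DVL2, and NLRP1, ENO3, CHRNB1, MED31 and ALOX12 were too dim to keep. TNK1, with a mean of 5.22, lay just inside the filter and CHRNB1, with 4.89, just outside. The rule uses the place, symbol and mean level of the genes and not the difference between the groups. The genes themselves were, however, listed with earlier results of these data known. In the annotation 56 of the 58 were found, all on chromosome 12, and CTDNEP1 and NLGN2 were not. In the list itself 14 genes came before RABEP1 and 44 ran from RABEP1 to FXR2.

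The study asked which transcripts go with coping style, the way an animal meets an external stressor. All 20 pigs were German Landrace, and tissue was taken at slaughter, months after birth. The HR group held 10 animals and the LR group held 10, each with 1 array of amygdala RNA. They were chosen both for extreme behavior in an early-life backtest, in which a piglet is held on its back, and for their haplotype in the coping region of SSC12. The sample labels give the coping pattern of each animal but not its haplotype, so the behavior and the haplotype cannot be told apart in this comparison. All differences are HR minus LR on the log2 scale, with a positive value where the HR mean was higher.

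A haplotype is a set of alleles that are inherited together because they lie close on a chromosome. Neighbouring genes on it need not share a function, yet sequence variants carried by the same haplotype can alter the expression of nearby genes in the same animal. The amygdala is a forebrain region that takes part in fear and in the appraisal of threat. The products of the genes listed here range from the largest subunit of RNA polymerase II and translation factors to synaptic and trafficking proteins. The roles given below are those known from the human and mouse genes.

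Some features of the arrays moved with the groups and bear on every value below. LR replicate 3 stood apart, since its correlations with the other arrays had a median of 0.876. It was the lowest of all 20 arrays for 31 of the 46 kept genes and the highest for 3, while HR replicate 6 was the highest for 18. The mean of 69 antigenomic probe sets, which measure background signal, was 4.21 ± 0.13 in HR and 4.08 ± 0.15 in LR (SD, n = 10 each). In addition, 9 of the 10 HR animals carried an animal number above that of every LR animal. Among cell type markers, 6 of 7 neuron markers were lower in HR at an unadjusted p under 0.05, with a median of -0.26 and a summed level between 70.6 and 74.5 in HR and between 72.3 and 77.4 in LR. Astrocyte markers had 1 of 6 higher and 3 lower with a median of -0.28, and excitatory markers had 3 of 4 higher. Over all tested genes 14.2% were higher and 15.4% lower at that p. Each other marker list had at most 1 gene at that p. Microglia had 1 of 7 higher, endothelial 1 of 5 higher, oligodendrocyte 1 of 5 lower and inhibitory 1 of 3 lower. With the background mean as a covariate, no neuron marker remained at that p and the medians were -0.05 for neuron, -0.05 for astrocyte and 0.14 for excitatory markers. Of the listed markers, 7 of 8 neuron, 6 of 6 astrocyte, 5 of 6 oligodendrocyte and 7 of 10 microglia genes passed the filter. Of all 13588 named genes 10255 passed it, so passing does not identify the tissue. In whole tissue fewer cells of a type and less RNA per cell cannot be told apart. The part of these features in the differences was not tested beyond the covariate fits and the fit without LR replicate 3 given below.

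No gene of the stretch passed an adjusted p of 0.05, the lowest adjusted p was 0.157 (limma, Benjamini-Hochberg over all tested probe sets), and 0.00838% of all tested probe sets did pass. At an unadjusted p under 0.05 there were 20 of 46 genes higher and 4 lower in HR, or 52.2% of the locus genes. Over all tested genes 29.6% were at this p, 14.2% higher and 15.4% lower. The median difference was 0.19 over the 46 genes and 0.05 over all genes, and 37 of the 46 lay above 0, where 58.1% of all genes did. A lean above 0 was not particular to the stretch. Of the 598 other tested genes of chromosome 12, 460 lay above 0, with a median of 0.11. At an unadjusted p under 0.05 (limma), 132 of those 598 were higher and 46 lower in HR, or 29.8%. Without LR replicate 3 the counts were 20 higher and 2 lower, 47.8% of the locus genes against 20.5% of all genes (9.04% higher and 11.4% lower), and the median was 0.12.

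The background mean, the animal number and the first principal component of the tested probe sets, which held 49.0% of the variance, were each added as a covariate. With the background mean 10 locus genes were higher and 2 lower in HR, 26.1% against 3.98% of all genes (1.96% higher and 2.02% lower). With the animal number 5 were higher and 1 was lower, 13.0% against 3.70% of all genes (2.33% higher and 1.37% lower). With the first component 7 were higher and 3 lower, 21.7% against 4.20% of all genes (1.74% higher and 2.47% lower). All of these covariates differed in mean between HR and LR, so a fit that holds them can also take away differences that belong to the groups. In each of the fits the locus genes held a larger share at low p than all genes did, and the difference between these shares was not tested.

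**Figure D1:**
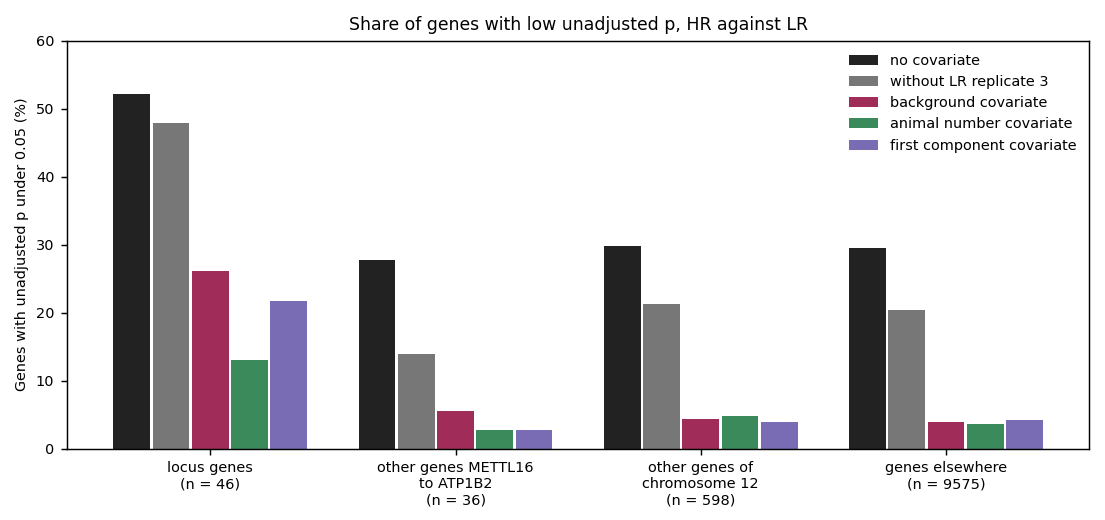
Share of genes with an unadjusted limma p under 0.05 (y axis, %) for the 46 locus genes, the 36 other tested genes between METTL16 and ATP1B2, the 598 other genes of chromosome 12 and 9575 genes elsewhere, under each of the fits (bars). The locus genes reach 52.2% with no covariate and 13.0% in the fit that held the animal number, and their bar is the highest of the gene sets in every fit.

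The other 36 tested genes between METTL16 and ATP1B2, genes that the study named at the SSC12 locus, had 7 higher and 3 lower in HR, or 27.8%. Of these 36 genes 28 lay above 0, with a median of 0.06. With the background covariate they had 0 higher and 2 lower, or 5.56%. METTL16 itself, an RNA methyltransferase gene, gave -0.35 and, with the background covariate, -0.07, while ATP1B2, a subunit of the sodium pump, gave 0.01. Within the list, the 35 kept genes from RABEP1 to FXR2 had 17 higher and 2 lower, or 54.3%, with a median of 0.19. The 11 kept genes before RABEP1 had 3 higher and 2 lower, or 45.5%, with a median of 0.06. Over all tested genes 29.6% had an unadjusted p under 0.05, and 3.98% did with the background covariate.

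All 8 kept genes of transcription and chromatin had a higher mean in HR, where 58.1% of all tested genes did, and 5, or 62.5%, had an unadjusted p under 0.05, where 29.6% of all genes did. At that p were 2 of the 8 with the background covariate and 0 with the animal number. POLR2A, which encodes the largest and catalytic subunit of RNA polymerase II, lay between 9.46 and 9.71 with a median of 9.53 in HR, against 8.65 to 9.64 with a median of 9.20 in LR. All 10 HR pigs were above the LR median, and the groups overlapped only through the highest LR animal. Its difference was 0.33 ± 0.09 (SE), at an adjusted p of 0.157, and with the background covariate it was 0.21 ± 0.08 (SE). The second POLR2A probe set gave 0.21. PHF23, a PHD finger protein that binds methylated histone, lay between 7.30 and 7.58 with a median of 7.45 in HR, and between 6.73 and 7.44 with a median of 7.21 in LR. Again all 10 HR pigs were above the LR median, and the lowest value of all was that of LR replicate 3. The difference of PHF23 was 0.26 ± 0.08 (SE), at an adjusted p of 0.157, and 0.16 with the background covariate.

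The other transcription genes at an unadjusted p under 0.05 were CAMTA2, a calmodulin-binding transcription activator, with 0.25, PELP1, a nuclear receptor coregulator, with 0.24, and GPS2, a subunit of the NCoR corepressor complex, with 0.21. For CAMTA2 too all 10 HR pigs lay above the LR median. With the background covariate these 3 genes gave 0.14, 0.10 and 0.09, at an unadjusted p above 0.05. The SUMO protease gene SENP3 gave 0.09, the methyl-CpG-binding protein gene ZBTB4 0.05 and the Mediator subunit gene MED11 0.05. With the background covariate their sign turned, with SENP3 at -0.03, ZBTB4 at -0.03 and MED11 at -0.01. A second, dimmer SENP3 probe set gave 0.21 at an unadjusted p of 0.0200.

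Among genes of replication, mitosis and the nuclear pore the directions were split, with 2 of 5 higher and 2 lower in HR at an unadjusted p under 0.05. Over all tested genes 14.2% were higher and 15.4% lower at that p. RPAIN encodes the protein that carries replication protein A into the nucleus and had the largest difference of all 46 genes. It lay between 5.80 and 6.33 with a median of 6.05 in HR, against 4.71 to 5.93 with a median of 5.68 in LR. All 10 HR pigs were above the LR median, and LR replicate 3, at 5.67, lay in the middle of its group. The difference was 0.49 ± 0.13 (SE), or 1.40-fold, at an adjusted p of 0.157. It hardly moved without LR replicate 3 (0.50) or with the background mean (0.49), the animal number (0.48) or the first component (0.47) as a covariate. The lowest RPAIN value, 4.71, was that of LR replicate 5, and without that array the difference was 0.39, the smallest of all settings. The level of RPAIN was among the lowest 13.9% of tested genes. INCA1, an inhibitor of cyclin-dependent kinase activity, lay between 5.20 and 5.87 with a median of 5.51 in HR, and between 4.81 and 5.50 with a median of 5.30 in LR. The groups overlapped over much of this range, although 9 of 10 HR pigs were above the LR median. INCA1 differed by 0.30 ± 0.09 (SE), at an adjusted p of 0.157, and its level was among the lowest 4.20% of tested genes. With the background covariate INCA1 gave 0.24, and with the animal number 0.12 at an unadjusted p of 0.265.

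MIS12 and NUP88 ran the other way. MIS12, a kinetochore protein that links chromosomes to the spindle, lay between 6.20 and 6.87 with a median of 6.60 in HR, against 6.50 to 7.81 with a median of 6.75 in LR. LR replicate 3 was the highest of all arrays, and the groups overlapped widely. The difference of MIS12 was -0.35 ± 0.15 (SE), at an adjusted p of 0.172, and it was -0.25 without LR replicate 3, or -0.13 when the background mean was a covariate. NUP88, a protein of the nuclear pore, lay between 5.17 and 5.86 with a median of 5.59 in HR, and between 5.50 and 6.25 with a median of 5.76 in LR. Here also the highest array was LR replicate 3, and 7 of 10 HR pigs were below the LR median. The difference of NUP88 was -0.22 ± 0.10 (SE), at an adjusted p of 0.176, and neither gene had an unadjusted p under 0.05 without LR replicate 3. KIAA0753, a centrosome and centriolar satellite protein, gave -0.05.

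**Figure D2:**
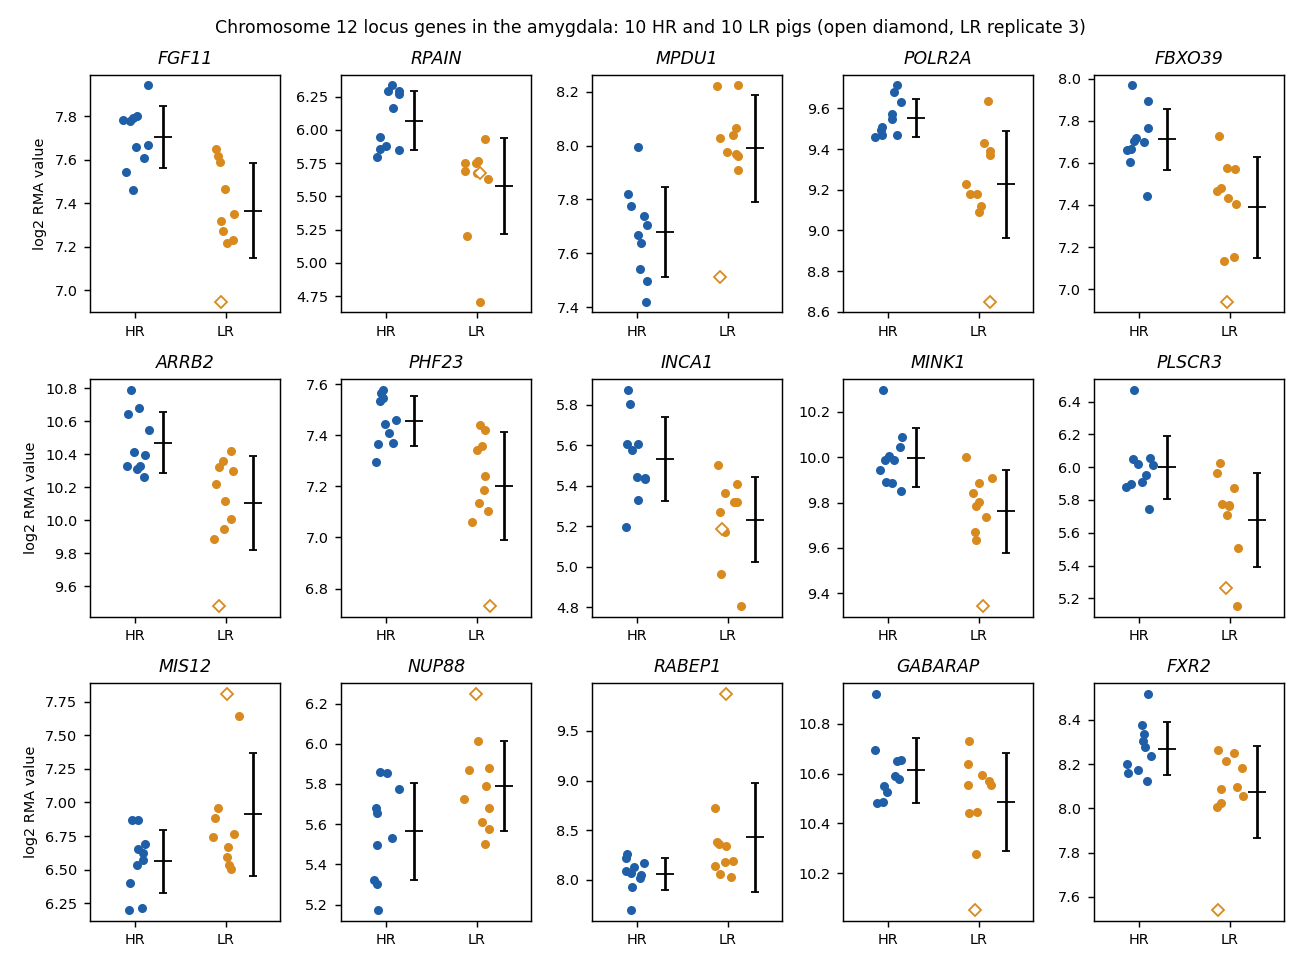
log2 value of each array (y axis, RMA scale) for the 15 genes described in full, with HR pigs to the left of LR pigs, and the mean ± SD of each group as a bar beside the points. The open diamond is LR replicate 3, which is the lowest array for genes such as ARRB2 and FXR2, the highest for RABEP1, MIS12 and NUP88, and within its group for RPAIN and INCA1.

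Of the 13 listed genes of the synapse, of receptors and of signalling, 8 were kept, 3 of them were higher in HR at an unadjusted p under 0.05 and none was lower. This was 37.5% of the 8, where 29.6% of all tested genes were at that p. FGF11 had the smallest p of the whole stretch. It encodes a fibroblast growth factor homologous factor, an intracellular protein of the family that binds voltage-gated sodium channels. FGF11 lay between 7.46 and 7.94 with a median of 7.72 in HR, against 6.95 to 7.65 with a median of 7.34 in LR. All 10 HR pigs were above the LR median, and the upper LR animals reached into the HR range. The difference was 0.34 ± 0.08 (SE), or 1.26-fold, at an adjusted p of 0.157, and 0.27 ± 0.09 (SE) with the background covariate. Both other FGF11 probe sets pointed the same way, with 0.22 and 0.18.

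ARRB2, the gene of beta-arrestin 2, which turns off and internalises G protein-coupled receptors, lay between 10.26 and 10.79 with a median of 10.40 in HR, against 9.48 to 10.42 with a median of 10.17 in LR. Its 10 HR values were all above the LR median, and the lowest array was LR replicate 3. The difference was 0.36 ± 0.10 (SE), at an adjusted p of 0.157. The other ARRB2 probe sets gave 0.29 and 0.23. Without LR replicate 3 the difference was 0.29, and with the background covariate it was 0.20 ± 0.08 (SE). MINK1, a kinase of the JNK pathway, lay between 9.85 and 10.30 with a median of 9.99 in HR, and between 9.35 and 10.002 with a median of 9.79 in LR. For MINK1 too every HR pig was above the LR median. The difference was 0.24 ± 0.08 (SE), at an adjusted p of 0.157, with 0.19 on its second probe set and 0.15 with the background covariate.

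GABARAP, which binds GABA-A receptors and takes part in autophagy, was among the brightest genes, above 97.3% of tested genes on the array scale. It lay between 10.48 and 10.92 with a median of 10.58 in HR, against 10.05 to 10.73 with a median of 10.55 in LR. The groups overlapped almost fully, with 6 of 10 HR pigs above the LR median. The difference of GABARAP was 0.13 ± 0.08 (SE), at an adjusted p of 0.265, and 0.02 ± 0.07 (SE) with the background covariate. DLG4 and NLGN2, which encode the postsynaptic scaffold PSD-95 and the adhesion protein neuroligin 2 of inhibitory synapses, had no probe set under their symbols. CHRNB1, a subunit of the muscle acetylcholine receptor, was below the filter, with 4.21 to 5.28 and a median of 5.06 in HR and 4.36 to 5.30 and a median of 4.77 in LR, and was not tested. The related receptor subunit gene CHRNE gave 0.04, the kinase gene TNK1 0.03, KCTD11, which feeds into Hedgehog signalling, -0.02 and the phospholipase gene PLD2 -0.04. PLD2 gave -0.18 at an unadjusted p of 0.0367 with the background covariate.

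All 10 listed genes of trafficking, the cytoskeleton and protein handling were kept, and 6 were higher and 2 lower in HR at an unadjusted p under 0.05. That is 80%, against 29.6% of all tested genes, and with the background covariate 30%, against 3.98%. MPDU1, which is required for the use of dolichol-linked sugars in protein glycosylation, had the smallest p of the genes lower in HR. It lay between 7.42 and 7.995 with a median of 7.69 in HR, against 7.51 to 8.22 with a median of 8.002 in LR. All 10 HR pigs were below the LR median. LR replicate 3, at 7.51, was the lowest of its group, whose other 9 values lay between 7.91 and 8.22, so that only the highest HR animal reached them. The difference was -0.31 ± 0.08 (SE), at an adjusted p of 0.157, and without LR replicate 3 it was -0.36. With the background covariate it was -0.41 ± 0.08 (SE), at an adjusted p of 0.386, and with the animal number -0.32 ± 0.11 (SE), at an adjusted p of 0.820. In a fit that weighted the arrays MPDU1 gave -0.39 and passed at an adjusted p of 0.0274, as it did with the first component, at -0.45 and an adjusted p of 0.0319. Its second probe set, which was below the filter, gave 0.03.

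RABEP1, the gene of rabaptin 5, an effector of Rab5 in early endosome fusion, lay between 7.70 and 8.26 with a median of 8.08 in HR, against 8.03 to 9.88 with a median of 8.26 in LR. All 10 HR pigs were below the LR median, and LR replicate 3 stood far above every other array. RABEP1 differed by -0.37 ± 0.17 (SE), at an adjusted p of 0.177, by -0.21 when LR replicate 3 was left out and by -0.10 with the background covariate. The other probe sets of RABEP1 gave -0.24 and -0.29. FBXO39, an F-box protein of ubiquitin ligases, lay between 7.44 and 7.97 with a median of 7.70 in HR, against 6.94 to 7.73 with a median of 7.45 in LR. Of its HR values 9 of 10 were above the LR median, and LR replicate 3 was the lowest array. The difference of FBXO39 was 0.32 ± 0.09 (SE), at an adjusted p of 0.157. It was 0.29 ± 0.10 (SE) with the background covariate and 0.37 ± 0.12 (SE) with the animal number.

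KIF1C, a motor of vesicle transport along microtubules, gave 0.24, the ubiquitin ligase gene RNF167 0.23 and the proteasome subunit gene PSMB6 0.23. DERL2, which helps to move misfolded proteins out of the endoplasmic reticulum, gave 0.21 and NEURL4, a centriolar protein, 0.19. These 5 genes each had an unadjusted p under 0.05, and with the background covariate only DERL2 did, at 0.16. The other tested probe sets of DERL2 gave 0.01 and -0.25 with no covariate, so its direction depends on the probe set. PFN1, the actin-binding protein profilin 1, gave 0.19 and the thioredoxin-like gene TXNDC17 0.06.

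Of the 6 kept genes of RNA handling and translation 2 were higher and 0 lower in HR at an unadjusted p under 0.05. This share of 33.3% was near the 29.6% of all tested genes, and with the background covariate it was 0. FXR2, an RNA-binding relative of the fragile X protein, lay between 8.13 and 8.52 with a median of 8.26 in HR, against 7.54 to 8.26 with a median of 8.09 in LR. All 10 HR pigs were above the LR median, and LR replicate 3 was by far the lowest array. The difference was 0.20 ± 0.08 (SE), at an adjusted p of 0.163, and 0.08 ± 0.07 (SE) with the background covariate. EIF5A, a translation factor that carries hypusine, gave 0.17, or 0.08 with that covariate, and every HR pig was above the LR median. The ribonuclease gene RNASEK gave 0.28 at an unadjusted p of 0.0553, the germ cell RNA-binding protein gene YBX2 0.13, the translation initiation helicase gene EIF4A1 0.03 and the helicase gene DHX33 -0.01.

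Among the 5 kept genes placed with mitochondria and metabolism 2 were higher and 0 lower at an unadjusted p under 0.05. They make up 40% of the 5, where 29.6% of all tested genes were at that p. PLSCR3, a scramblase of the mitochondrial membrane, lay between 5.74 and 6.47 with a median of 5.99 in HR, against 5.15 to 6.02 with a median of 5.77 in LR. HR replicate 6 was well above the rest, and 9 of 10 HR pigs were above the LR median. The difference was 0.32 ± 0.11 (SE), at an adjusted p of 0.157, and 0.25 with the background covariate. ACADVL, which starts the oxidation of very long chain fatty acids, gave 0.20, the mitochondrial carrier gene SLC25A11 0.19 and the citrate transporter gene SLC13A5 0.18. WSCD1, a sulfotransferase-domain protein, gave -0.12 on its brightest probe set and -0.40 on its dimmest tested probe set. Of the remaining kept genes, the immune genes XAF1, an interferon-induced partner of XIAP, and CXCL16, a chemokine, gave 0.28 and 0.21 at unadjusted p of 0.0744 and 0.0721. TMEM102 gave 0.16 and SPAG7 0.09.

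Every kept gene overlapped between HR and LR, as did all 10255 tested genes. A narrower measure was whether all 10 HR pigs fell on the same side of the LR median. RPAIN, CAMTA2, MINK1, PSMB6, ARRB2, PHF23, EIF5A, FGF11, POLR2A and FXR2 did so above it and RABEP1 and MPDU1 below it, that is 12 of 46 genes, where 8.38% of all tested genes did so in either direction. An unadjusted p under 0.05 with the same direction in the fit with no covariate and in each of the 3 covariate fits was found for 5 genes, FBXO39, RPAIN, ARRB2 and FGF11 higher and MPDU1 lower in HR. They make up 10.9% of the locus genes, against 1.12% of all tested genes. This last criterion was chosen after the values were seen, and the fits share the same arrays.

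Several probe sets of a gene give a reading of the same transcript unit from different probes, on the same arrays. Of the 46 genes, 15 had several tested probe sets, and in 11 of these all had the same sign. The 4 exceptions were WSCD1, DERL2, DHX33 and PLD2. DERL2 gave 0.21, 0.01 and -0.25 on its probe sets, with an unadjusted p of 0.0392 for the last, so its direction rests on the probe set that was chosen. Over all 69 tested probe sets of the locus genes, 27 were higher and 6 lower in HR at an unadjusted p under 0.05, 47.8% against 26.3% of all probe sets (12.3% higher and 14.0% lower). Of the 69, 53 lay above 0, where 59.1% of all probe sets did. The remaining 31 genes, RPAIN, FBXO39 and MPDU1 among them, rested on a single tested probe set.

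**Figure D3:**
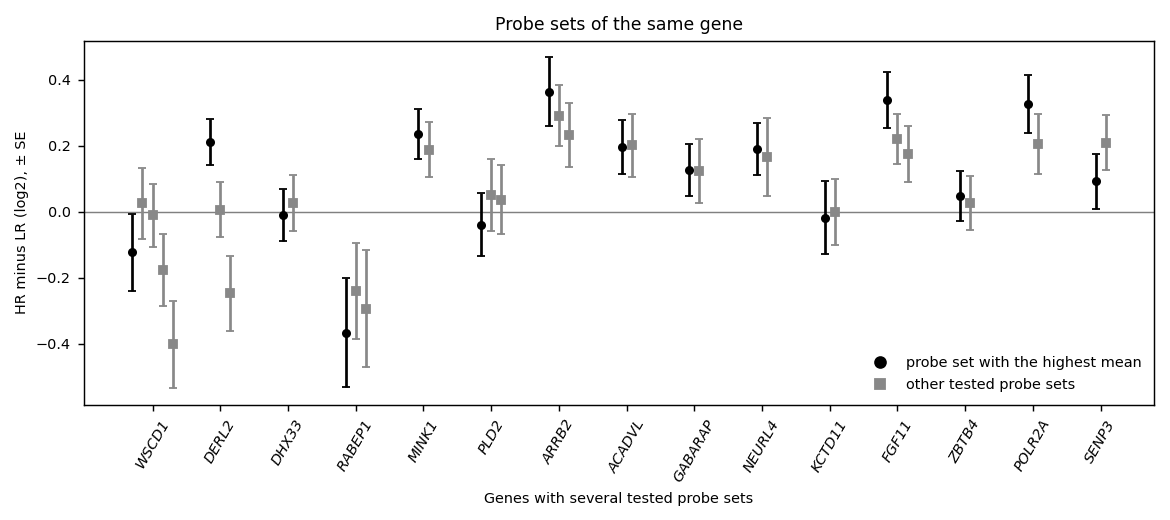
Difference HR minus LR ± SE (y axis, log2) of every tested probe set for the 15 locus genes with several of them, in chromosome order. All probe sets of ARRB2, FGF11, POLR2A and MINK1 lie above 0 and those of RABEP1 below it, while DERL2 and WSCD1 spread to both sides.

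Along the chromosome most immediate neighbours had differences of the same sign, with 37 of the 46 kept genes above 0. In the RefSeq annotation of the pig, 24 pairs of kept genes were immediate neighbours, and 6 of these pairs had differences of opposite sign. RPAIN with 0.49 lay next to NUP88 with -0.22, and MIS12 with -0.35 lay next to DERL2 with 0.21. With the background covariate NUP88 gave -0.11 and MIS12 -0.13, at unadjusted limma p of 0.266 and 0.328. The other opposite pairs were TXNDC17 and KIAA0753, DERL2 and DHX33, MINK1 and PLD2, and PLD2 and PSMB6, each with a member within 0.06 of 0. MPDU1, at -0.31, lay between EIF4A1 with 0.03 and FXR2 with 0.20, with 1 annotated gene on either side between them. The annotated spans of 11 pairs overlapped, 2 of them with opposite signs, and XAF1 and SLC13A5 lie within the span given for FBXO39. Strand was not used here, so readings of overlapping genes cannot be assigned further.

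**Figure D4:**
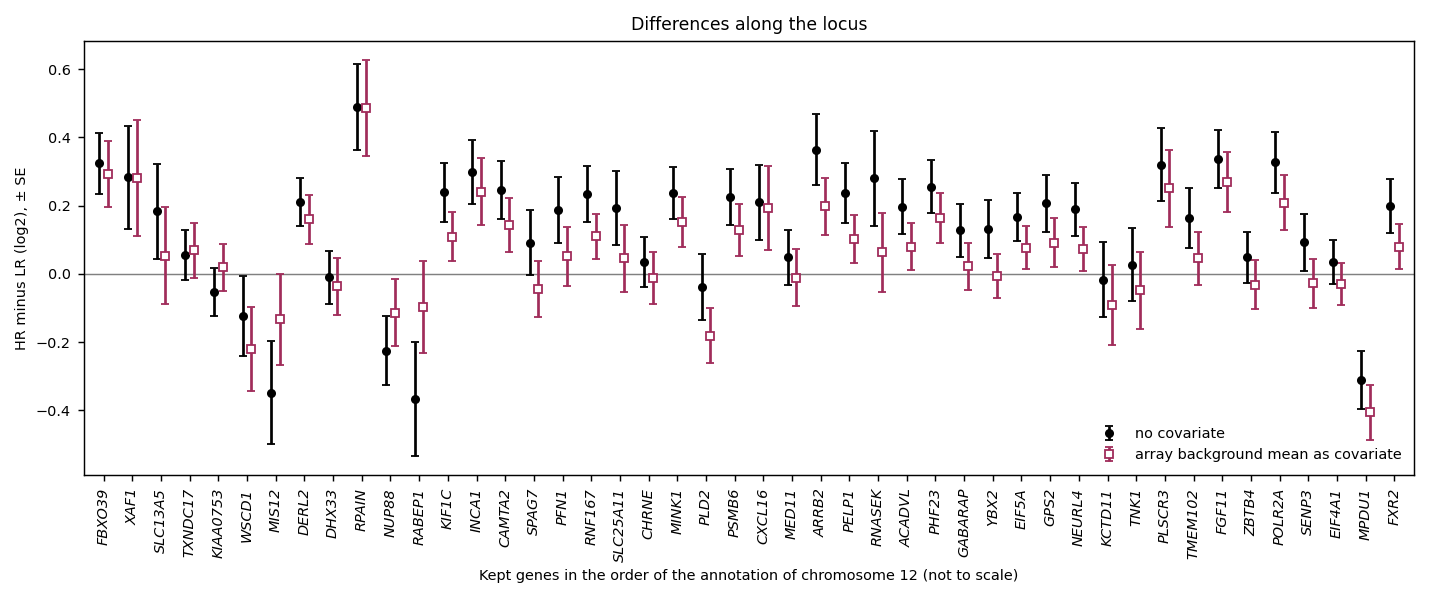
Difference HR minus LR ± SE (y axis, log2) of the 46 kept genes in their order on chromosome 12 (x axis, not to scale), with no covariate (filled circles) and with the array background mean as a covariate (open squares). RPAIN stays near 0.49 and MPDU1 is at -0.31 and -0.41, whereas MIS12 and RABEP1 come nearer to 0 with the covariate.

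Genes that act with or resemble the locus genes, and were listed for that reason, were read beside them. Again 29.6% of all genes and 52.2% of the locus genes were at an unadjusted p under 0.05. The partners of MPDU1 in dolichol and GPI mannosylation had 8 of 31 higher and 7 lower in HR, or 48.4%, a share near that of the locus genes. Among them the dolichol kinase gene DOLK gave 0.33, the glucosyltransferase gene ALG10 -0.35 and the dolichol synthesis gene DHDDS 0.21. Beside POLR2A with 0.33, 0 of 8 other RNA polymerase II subunits had that p in either direction, with POLR2C at 0.16, POLR2F at 0.20 and POLR2B at -0.33. The cargo of RPAIN, the replication protein A subunits RPA1, RPA2 and RPA3, gave -0.14, -0.13 and -0.07. Nuclear pore genes had 1 of 15 higher and 3 lower, or 26.7%, with SEH1L at -0.25, NUP107 at -0.37 and NUP62 at 0.20.

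Among synaptic partners of DLG4 and NLGN2, 5 of 13 were higher and 1 was lower in HR, or 46.2%. The postsynaptic scaffold gene SHANK1 gave 0.21, the neurexin gene NRXN2 0.19 and DLG2, a close relative of DLG4, -0.55. The relatives of FGF11 had 0 of 3 higher and 1 lower, with FGF13 at -0.22, FGF14 at -0.06 and FGF12 at 0.02, and the relatives of FXR2 gave 0.13 for FMR1 and -0.22 for FXR1. Mediator genes had 6 of 21 higher and 3 lower, or 42.9%, with CDK8 at -0.26, MED22 at 0.26 and MED10 at 0.25. With the background covariate 12 of the 46 locus genes (26.1%) fell below an unadjusted p of 0.05. In that fit 3.98% of all tested genes did so. MED28, at 0.21, was the only gene of these lists to do so, which is 1 of 21 Mediator genes (4.76%). Each of the other lists had 0. The shares of the lists were not tested against those of the locus genes or of all genes.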

How the data were processed

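Total RNA from the amygdala of 20 pigs was hybridised by the authors to Affymetrix porcine Snowball arrays and processed in GCOS 1.1.1 (submitters' processing notes). The deposited values are on the log2 scale after background correction, quantile normalization and robust multichip average (RMA) summary by the authors. The table holds 47845 probe sets with values from 0.49 to 14.3 and array medians from 5.14 to 5.22. No further normalization was applied. Arrays give no read depth, and their number limits the precision.

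Groups came from the labels. Probe sets other than the 123 controls with a mean of at least 5.18 were tested, 23860 in all. Of all probe sets 26426 had 1 gene symbol, 0 had several and 21419 had none, and rows of microRNA precursors were not used as genes. The probe set with the highest mean stood for a gene. Of the 10255 genes, 99.9% had an entry in the RefSeq table of the Sscrofa11.1 assembly, used only for gene order because the array annotation names no build.

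The difference HR minus LR was fitted in limma 3.58.1 (R 4.3.3), 2-sided and without covariates, and p was adjusted by Benjamini-Hochberg over all tested probe sets, with a threshold of 0.05. Replicates are separate animals. Described in full were the 10 locus genes with the smallest p, the 4 of smallest p among those higher in LR, the synaptic genes DLG4, NLGN2, GABARAP and CHRNB1, and RABEP1 and FXR2. Of each related list up to 3 genes of smallest p were named. MED28 was named after its values were seen. The locus genes, lists and rules were chosen with earlier results of these data known. Alternatives changed the filter, the normalization, the variance model, the covariates, the probe set rule and the arrays left out. On simulated data for this comparison (23860 probe sets, 5 simulations) calls were made at an adjusted p under 0.05. There limma called 6.57% of differences of 0.25, 71.3% of 0.5 and 97.3% of 1, with a median of 1 false call. The simulations shuffled the arrays and added differences to a small part of the probe sets. They therefore lack the array features that moved with the groups, and these rates need not hold for the real comparison.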

Additional observations from a re-analysis of the deposited data

Results flagged for a closer look

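In 7 of the 30 groups of 10 values tested (15 locus genes, HR and LR), the highest or lowest array stood apart from its nearest neighbour by more than the share of the range of the group that Dixon's test allows. Chance gives about 1 in 20 such groups, or 1.5 of 30. HR replicate 6 was highest for MINK1 at 10.3, with the next array at 10.1, for PLSCR3 at 6.47, with the next at 6.06, and for GABARAP at 10.9, with the next at 10.7. LR replicate 3 accounted for the other 4. It was lowest for MPDU1 at 7.51, against 7.91 for the next array, for PHF23 at 6.73, against 7.06, and for FXR2 at 7.54, against 8.01. It was highest for RABEP1 at 9.88, against 8.73 for the next array.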

How the results depend on the processing

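Over 31 other settings, the 15 genes described in full kept their direction in 458 of 460 fitted values. RABEP1 gave 0.011 and GABARAP -0.022 with the first component as a covariate. The 20 locus genes higher in HR at an unadjusted p under 0.05 became 10 with the background covariate, 5 with the animal number, 7 with the first component and 12 with the background covariate and without LR replicate 3, and lay between 20 and 23 when each array was left out in turn. The 4 lower became 2 with a stricter filter (29 genes tested), 2 with array weights, 2 with the background covariate, 1 with the animal number and 2 with the background covariate and without LR replicate 3. Leaving out each array in turn gave 1 to 4, with 1 without HR replicate 6 or LR replicate 2 and 2 without HR replicate 10 or LR replicate 3. The count at an adjusted p under 0.05, 0 in the comparison as reported, was 1 with array weights and likewise 1 with the first component, MPDU1 in both, and 0 to 0 with each array left out. The median difference of 0.19 was 0.10 with array weights, 0.066 with the background covariate, 0.098 with the animal number, 0.034 with the first component and 0.085 with the background covariate and without LR replicate 3, and 0.12 to 0.21 with each array left out. The cause of these changes was not tested. The fit with the background covariate and without LR replicate 3 was added after the data were seen. No paired analysis was possible because replicate numbers were given in accession order and pair no animals. Of simulated differences of 0.25, the size of many locus genes, 6.57% were called at an adjusted p under 0.05. Those simulations lacked the array features that moved with the groups, so the rate for the locus genes may differ. Of the 58 listed genes 12 were not tested here.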
